A study of Mus musculus with 8 samples.

Results

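Transcripts of 35 genes of the p53 pathway were followed in mouse embryonic fibroblasts with and without the m6A writer Mettl3, in whole-cell RNA and in an RNA fraction enriched for stress granules. The members were taken by name (Trp53, its regulators and its direct targets), with earlier results of these data known. All 35 were found among the 39017 gene identifiers of the count table, and all 35 passed the expression filter that left 18952 genes for testing. By role they comprised 5 genes of p53 and its feedback loop, 6 of arrest and the cell cycle, 12 of apoptosis, 4 of DNA repair and 8 of metabolism, signalling and other functions.

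The cells were embryonic fibroblasts from mouse embryos at stage E13.5, in 4 groups of 2 libraries each, which the study's description calls biological replicates. Control total and knockout total RNA came from unstressed cells. Control granule and knockout granule RNA was taken after 30 min in 500 µM sodium arsenite, a stress agent that halts translation and gathers stalled mRNAs into cytoplasmic stress granules, which were then enriched by centrifugation. Fraction and stress therefore changed together, and a granule to total difference can come from either. Knockout cells had been given 500 nM 4-hydroxytamoxifen for 48 h to switch on a Cre recombinase that deletes Mettl3, and were examined for loss of the protein and of m6A after 7 days. The labels do not name the promoter of the Cre or the number of embryos behind a culture, nor do they say whether control cells received the drug or carried the Cre. All RNA was selected for poly(A) tails. In bulk RNA, fewer cells of a kind and less RNA per cell cannot be told apart.

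The p53 protein is a transcription factor that is held low by the ubiquitin ligase Mdm2 and accumulates when DNA is damaged or cells are stressed. It binds DNA as a tetramer and switches on genes that stop the cell cycle, repair DNA or trigger apoptosis, together with genes such as Mdm2, Ccng1 and Ppm1d that switch p53 off again. Embryonic fibroblasts carry an active p53 pathway in culture, where it limits their growth, and mRNAs of the pathway have been studied as carriers of m6A, a mark that is known to shorten the life of many mRNAs and to bind YTH-domain reader proteins.

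The DNA element that p53 binds consists of a pair of arms of 10 bases each, placed next to each other or up to 13 bases apart. Promoter windows from RefSeq (GRCm38.p6, 250 bases before to 50 after each transcript start) were held for 27 of the 35 members, as 36 windows, and were searched for the p53 response element consensus, with the 4-base core of each arm intact and at most 2 mismatches over the 20 bases of both arms. Both strands were covered, since each arm reads the same on either strand. Such a match stood in the windows of 5 members, against 2.47% of the 27025 genes in the table, and in 13.9% of the members' windows against 2.12% of all 32851 windows. With at most 1 mismatch the count was 2 members against 0.47% of genes, and with at most 3 it was 11 members against 7.63%. The 5 matches are shown because 3 of them belong to arrest and cell-cycle genes whose granule levels are described further on. Capitals mark the 2 arms, lower case the bases between them, and each is written 5′ to 3′ on the strand of its gene.
Cdkn1a: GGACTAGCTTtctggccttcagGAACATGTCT
Gtse1: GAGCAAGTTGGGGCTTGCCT
Ckap2: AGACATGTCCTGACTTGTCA
Bax: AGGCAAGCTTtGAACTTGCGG
Sesn1: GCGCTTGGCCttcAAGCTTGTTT

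Only the match with the fewest mismatches in each window is shown. The Cdkn1a match, with 0 mismatches, lies at chr17:29090906-29090937 on the plus strand and begins 73 bases before the RefSeq start. Its second arm and the 10 bases directly after it also make a match within the rule, with 1 mismatch. The Gtse1 match, with 1 mismatch, lies at chr15:85859945-85859964 on the plus strand and begins 1 base before the RefSeq start. It thus runs into the first exon of that RefSeq transcript, and it lies inside the gene's GENCODE span, which starts at 85859745. The other 3 carry 2 mismatches each. The Ckap2 match lies at chr8:22186003-22186022 on the minus strand, 203 bases before the start, and that of Bax at chr7:45467079-45467099 on the minus strand, 201 bases before the start. For Sesn1 the match lies at chr10:41887253-41887275 on the plus strand, 186 bases before a RefSeq start that is inside the gene's GENCODE span. A match is a description of letters and was not tested for binding.

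Library depth lay between 67257220 and 123508539 counts, and 3 counts in the shallowest library equal 0.0446 CPM (counts scaled to library size). Mettl3 stood at 25.4 and 24.9 CPM in control total, 15.7 and 15.4 in control granule, 6.0 and 7.35 in knockout total and 5.56 and 6.38 in knockout granule RNA, so each knockout library was below each control library of its fraction (log2 fold change -1.91, adjusted p = 0.0345 in total and -1.38, adjusted p = 0.0208 in granule RNA). Summed fibroblast markers (9 of 9 found) came to 3481 to 7583 CPM over the 8 libraries. The macrophage, endothelial, skeletal muscle, erythroid and neural lists each stayed under 100 CPM in sum. Myod1 and Sox10 were at or near 0, but Des of the muscle list reached 5.66 CPM and Tubb3 of the neural list 39.4 CPM. Ptprc of the macrophage list (16.7 to 41.8 CPM) exceeded the fibroblast markers Pdgfra (1.39 to 3.47), Thy1 (3.30 to 12.9) and Dcn (8.01 to 18.3) in every library. The other fibroblast markers exceeded Ptprc in every library. The epithelial list summed to 204 to 336 CPM in control total, 677 to 713 in control granule, 49.2 to 89.5 in knockout total and 527 to 664 in knockout granule RNA, nearly all from Krt18, with Epcam between 0.728 and 1.61 CPM. Its part in the results was not tested. Mitochondrially encoded genes took 0.590% to 0.881% of the counts in 5 libraries, but 7.60% in replicate 1 of knockout total RNA and 6.16% and 8.81% in knockout granule RNA.

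Replicate 1 of knockout total RNA stood apart from its partner. Over 10261 genes of at least 5 CPM on average, replicates lay a median of 0.813 apart (absolute log2 ratio) in knockout total RNA, against 0.312 in control total, 0.101 in control granule and 0.134 in knockout granule RNA. Among the members, 13 of 35 differed more than 2-fold between the 2 knockout total libraries, and the difference ran with the GC content of the mRNA (Spearman's rho across the 35 members -0.873, across all genes -0.734, a description across genes that share the 2 libraries). The 7 members that were higher in replicate 1 (Mdm2, Ccng1, Ppm1d, Pmaip1, Eda2r, Rrm2b and Polk) have a GC content of 39.4% to 49.1%, and the 6 that were lower (Btg2, Bax, Bbc3, Phlda3, Gdf15 and Pltp) have 49.7% to 65.2%. In control total RNA the replicates differed with GC content in the opposite sense (rho 0.870 across the members), with 1 member, Rrm2b, over 2-fold apart. Counts of calls over the 35 members are therefore also given without replicate 1, with the names of the members called then. Counts by role and the further lists at the end are given with all 8 libraries alone. Wherever leaving out a library lowered the count of members called, the share of all genes called fell as well, so such a drop is not particular to the members.

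**Figure D1:**
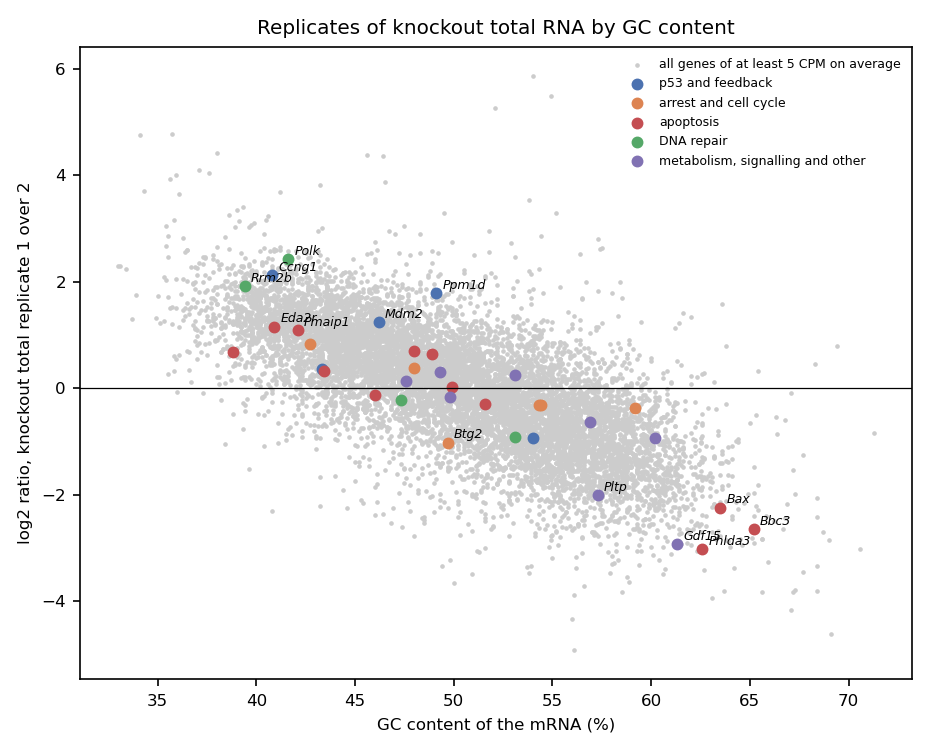
Each point is a gene, with the GC content of its mRNA (%) on the x axis and the log2 ratio of replicate 1 to replicate 2 of knockout total RNA on the y axis. Coloured points are the 35 members by role and grey points are the other genes of at least 5 CPM on average. The members run from Polk at 2.42 to Phlda3 at -3.02 as GC content rises.

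In granule RNA, 9 of the 35 members were lower in knockout than in control cells and 0 were higher (edgeR quasi-likelihood test, Benjamini-Hochberg adjusted p under 0.05, the rule for every call that follows), where 3.66% of all tested genes were called lower and 5.79% higher. The 9 were Zmat3, Gtse1, Aen, Eda2r, Ei24, Ckap2, Tnfrsf10b, Epha2 and Ephx1. The median log2 fold change of the 35 members was -0.70, beside 0.08 over all genes. Both knockout granule libraries were below both control granule libraries for 27 members and above them for 3 (Ppm1d, Bbc3 and Pltp), and over all tested genes 36.6% were below and 40.4% above in this way. The share of mitochondrial counts moved with the genotype in this fraction, from at most 0.678% to at least 6.16%, and its part in these values was not tested. The count of 9 fell to 0 without any 1 of the 4 granule libraries and to 4 without either control total library, and it was 22 without replicate 1 of knockout total RNA, a fit that called 39.0% of all genes. All 9 were kept in that fit, and the 13 gained were Trp53, Mdm2, Mdm4, Ccng1, Cdkn1a, Plk2, Perp, Apaf1, Rrm2b, Polk and Tigar, lower in knockout cells, and Bbc3 and Pltp, higher.

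**Figure D2:**
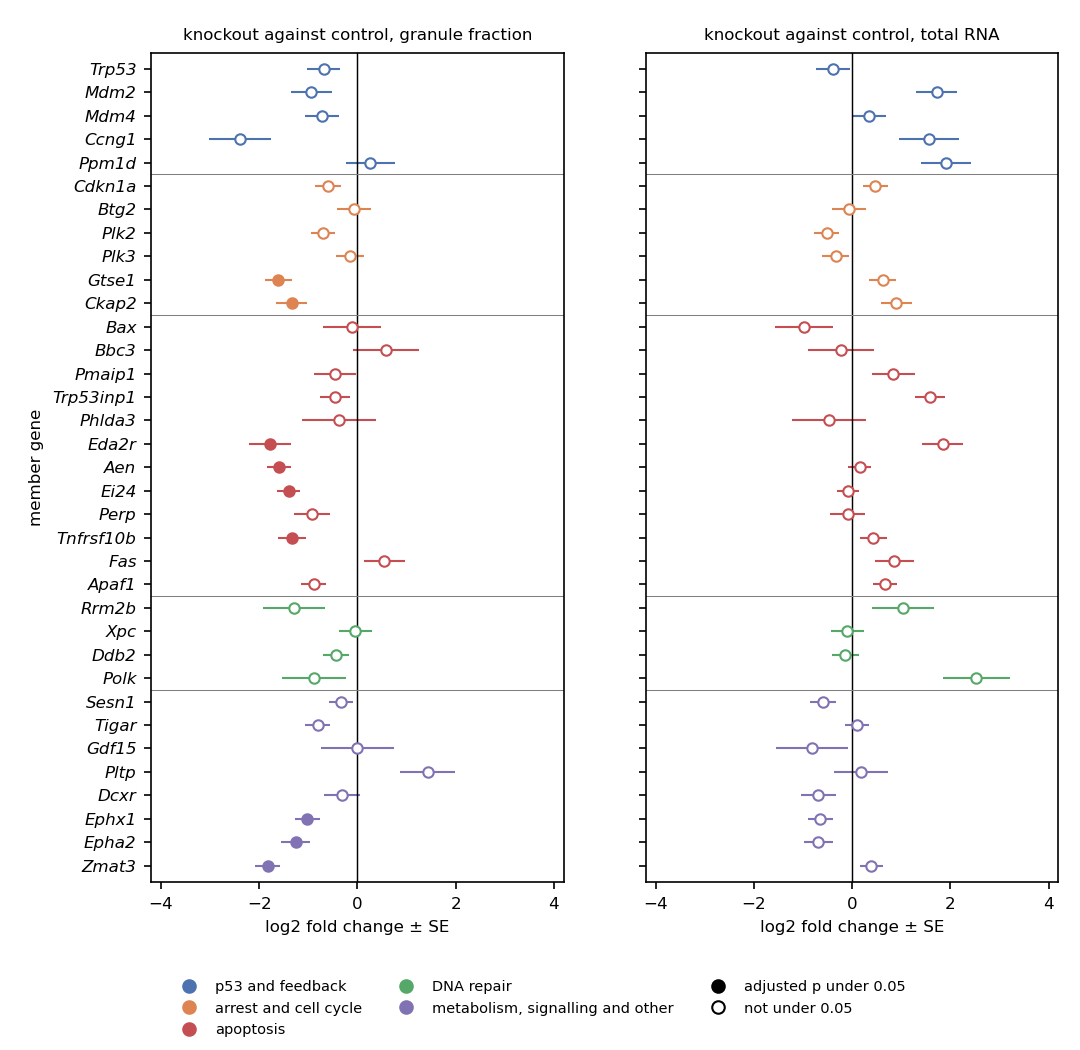
Log2 fold change of knockout against control with its standard error (x axis) for each of the 35 members (y axis, coloured by role), in the granule fraction on the left and in total RNA on the right. Filled points passed the adjusted p threshold, which 9 members did in the granule fraction, all lower in knockout, and 0 did in total RNA.

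In unstressed total RNA, 0 of the 35 members passed the same test between the genotypes, beside 0.274% of all genes called higher and 0.137% called lower. At an unadjusted p under 0.05, there were 12 members, 9 with higher and 3 with lower values in knockout cells, beside 24.8% of all genes. DESeq2's Wald test called 7, all higher (Mdm2, Ccng1, Ppm1d, Ckap2, Trp53inp1, Eda2r and Polk), beside 13.2% of all genes. The knockout libraries lay above both control libraries for 11 members and below them for 6, and over all genes this held for 24.4% and 24.7%. Without replicate 1 of knockout total RNA the count was 6 of 35, with Mdm2, Ppm1d, Trp53inp1, Eda2r and Pltp higher and Plk2 lower in knockout cells, and 5.52% of all genes were called. Without replicate 2 it was 24, of which 14 were higher and 10 lower, with 47.8% of all genes called.

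Between fractions, control and knockout cells were measured against their own total RNA. In control cells 7 of the 35 members were higher in granule than in total RNA (Mdm2, Plk2, Gtse1, Ckap2, Trp53inp1, Apaf1 and Zmat3), with 5.89% of all genes called higher, and 1 was lower (Ddb2), with 4.17% called lower. In knockout cells 2 members were higher (Plk2 and Sesn1; background 9.17%) and 9 were lower (Mdm4, Gtse1, Eda2r, Aen, Perp, Tnfrsf10b, Ddb2, Tigar and Zmat3; background 8.47%). Median log2 ratios of granule to total RNA over the members were 0.47 in control and -0.82 in knockout cells, beside -0.06 and 0.04 over all genes. Of the 35, 17 had a positive ratio in control and a negative one in knockout cells, and 2 the reverse. The share of all genes with such a change of sign was not counted, so these counts have no background. Of the members named next as gained in control cells, Trp53, Bax, Xpc, Gdf15, Pltp and Dcxr were lower in granules in that fit (log2 -0.68, -0.76, -0.74, -2.82, -1.35 and -0.53). The others gained in control cells were higher in granules. The control count of 8 fell to 0 without any 1 of the 4 control or 2 knockout granule libraries and was 23, with 40.6% of all genes called, without replicate 1 of knockout total RNA, where the 15 gained were Trp53, Ccng1, Ppm1d, Cdkn1a, Btg2, Bax, Eda2r, Ei24, Xpc, Polk, Sesn1, Gdf15, Pltp, Dcxr and Epha2. The knockout count of 11 fell to 0 without either knockout granule library, to 4 without either control granule library and to 6 without either control total library, and was 20, with 34.0% of all genes called, without replicate 1 of knockout total RNA. That fit kept all 11 and gained 9, all lower in granules (Trp53, Cdkn1a, Bax, Phlda3, Ei24, Xpc, Gdf15, Pltp and Ephx1).

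Whether the granule to total ratio itself differed between the genotypes was tested as the interaction of genotype and fraction. It was called for 1 of the 35 members, Zmat3, whose ratio was lower in knockout cells by 2.22 on the log2 scale (log2 difference -2.22, SE 0.34, adjusted p = 0.0470), with 0.116% of all genes called lower and 0.401% called higher. At an unadjusted p under 0.05 the count was 16 of 35, all with the lower ratio in knockout cells, beside 25.8% of all genes in either direction, and the next smallest adjusted p-values were those of Eda2r (log2 difference -3.62, adjusted p = 0.0538) and Gtse1 (-2.24, adjusted p = 0.0567). The median over the members was -0.91, beside 0.09 over all genes. The Zmat3 call was lost without any 1 of the control or granule libraries. Without replicate 1 of knockout total RNA 14 members passed, all lower, where 18.6% of all genes were called. They were Zmat3 (-2.17), Eda2r (-2.94, adjusted p = 2.28e-04), Gtse1 (-2.40, adjusted p = 2.69e-04), Mdm2, Ccng1, Cdkn1a, Ckap2, Trp53inp1, Aen, Ei24, Tnfrsf10b, Apaf1, Polk and Epha2. Without replicate 2 the count was 24, of which 19 were lower and 5 higher, with 46.4% of all genes called.

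**Figure D3:**
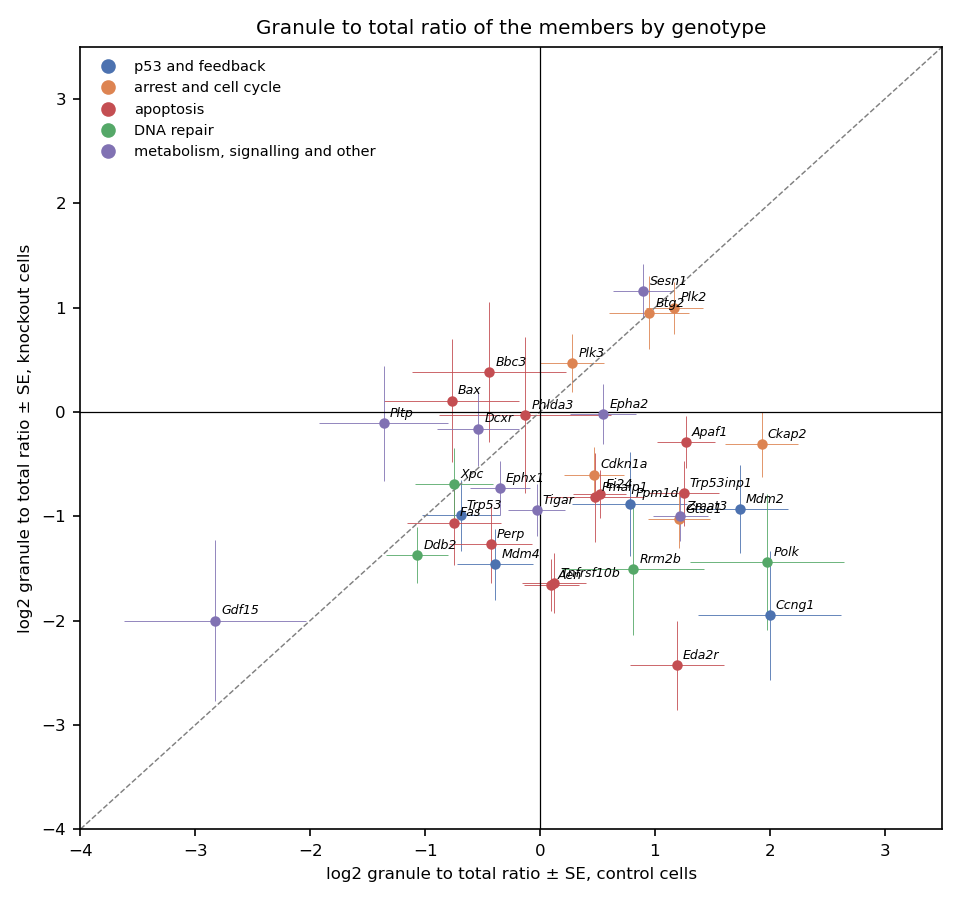
Log2 granule to total ratio of each member with its standard error, in control cells (x axis) and in knockout cells (y axis), coloured by role, with the line of equal ratios dashed. Most of the feedback, arrest and apoptosis members lie below the line, and 17 of the 35 members lie in the lower right part, positive in control and negative in knockout cells. The share of all genes in that part was not counted.

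Among p53 and its feedback genes, 0 of 5 passed the test between genotypes in either fraction. Trp53 itself (ENSMUSG00000059552, GRCm38 chromosome 11, 69580359 to 69591873, plus strand) stood at 443 and 335 CPM in control total, 205 and 391 in knockout total, 238 and 245 in control granule and 159 and 140 in knockout granule RNA. The total libraries of the 2 genotypes overlapped, and the knockout granule libraries were below the control granule ones (log2 fold change -0.69, SE 0.34, adjusted p = 0.229). Mdm2, the ligase that degrades p53 (ENSMUSG00000020184, chromosome 10, 117688875 to 117710758, minus strand), stood at 105 and 162 CPM in control total and 475 and 416 in control granule RNA. Its granule to total ratio in control cells was 3.34-fold (log2 1.74, SE 0.42, adjusted p = 0.0425). In knockout cells Mdm2 stood at 620 and 262 CPM in total and 223 and 241 in granule RNA. Both total libraries exceeded both granule libraries, an order opposite to that in control cells, but the difference was not called. The Mdm2 log2 ratio in knockout cells was -0.93 (SE 0.42, adjusted p = 0.158), and -0.18 without replicate 1 of knockout total RNA. The genotype difference of the ratio was -2.67 on the log2 scale (SE 0.59, adjusted p = 0.0858), and -1.93 (adjusted p = 0.00196) without replicate 1 of knockout total RNA. In total RNA, where both knockout libraries were above both control libraries, the Mdm2 log2 fold change was 1.72 (SE 0.42, adjusted p = 0.122), and it was 0.98 (adjusted p = 0.0313) without replicate 1 of knockout total RNA.

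Mdm4, the p53-binding partner of Mdm2 (ENSMUSG00000054387, chromosome 1, 132959484 to 133030561, minus strand), was the feedback gene of the lowest level per length, at 1.18 CPM per kb of mRNA in control total RNA. It stood at 6.68 and 10.1 CPM in control total, 7.34 and 5.51 in control granule, 12.1 and 9.41 in knockout total and 3.39 and 4.42 in knockout granule RNA. Its granule level was lower than its total level in knockout cells (log2 -1.46, SE 0.34, adjusted p = 0.0256), and the fractions overlapped in control cells. Ccng1, which encodes cyclin G1 and recruits a phosphatase to Mdm2, had the lowest log2 fold change of all members between knockout and control granules, -2.39 (SE 0.63), yet did not pass (adjusted p = 0.0532). It passed without replicate 1 of knockout total RNA. Its values were 330 and 323 CPM in control granule against 56.1 and 68.6 in knockout granule RNA, with 58.5 and 104 in control total and 392 and 89.8 in knockout total RNA. The granule groups were far apart, while replicates of knockout total RNA differed more than 4-fold. Ppm1d, the Wip1 phosphatase that turns off damage signalling, stood at 14.5 and 15.3 CPM in control total and 87.2 and 25.2 in knockout total RNA. Its log2 fold change there was 1.91 (SE 0.51, adjusted p = 0.136), and 0.76 (adjusted p = 0.0447) without replicate 1 of knockout total RNA. In granules Ppm1d stood at 26.1 and 25.2 CPM in control and 31.9 and 29.3 in knockout cells (log2 0.26, SE 0.50, adjusted p = 0.771).

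**Figure D4:**
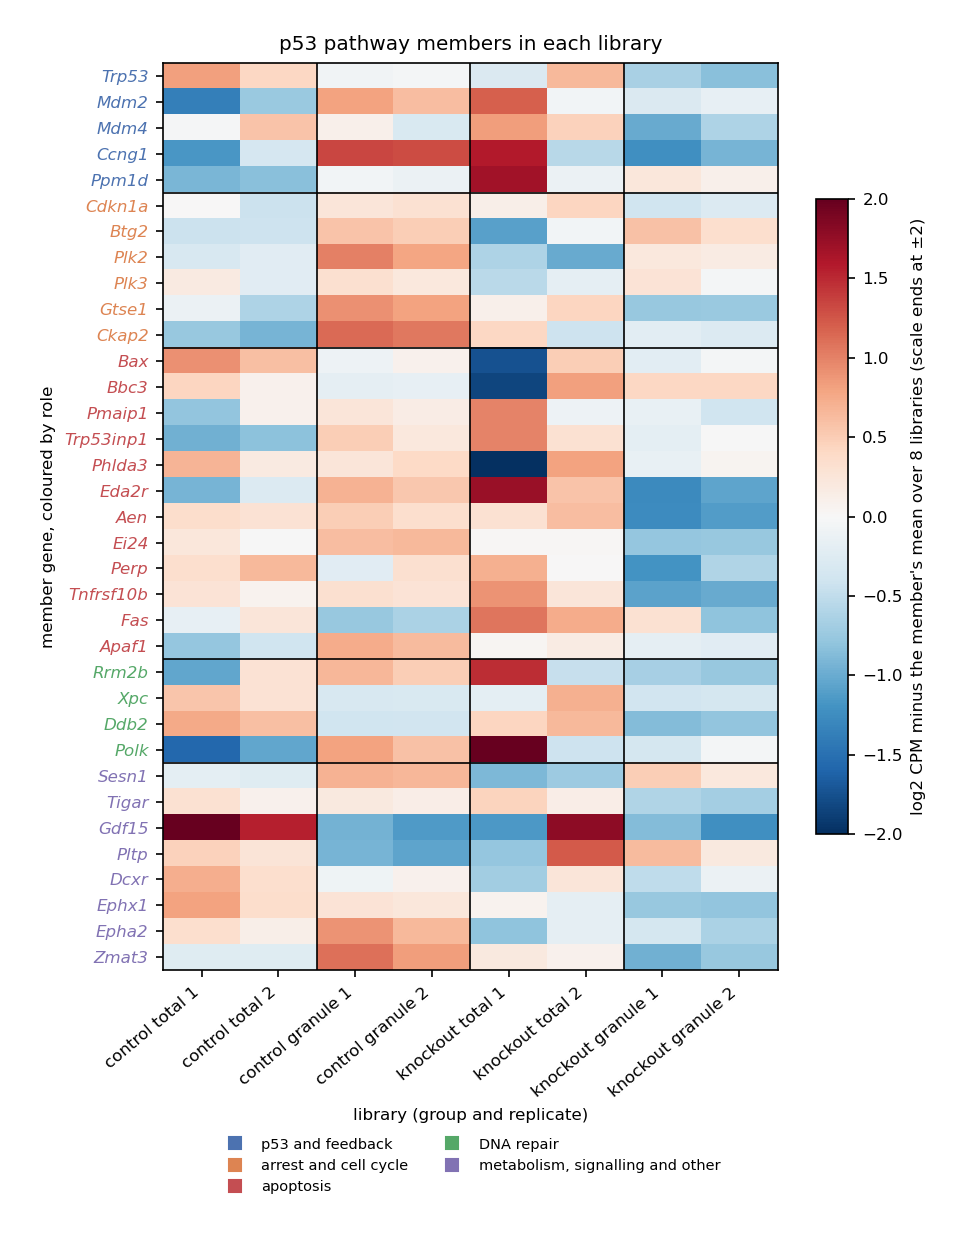
Log2 CPM of each of the 35 members (rows, by role) in each of the 8 libraries (columns), after subtracting the member's mean over the libraries. The colour scale ends at 2 in either direction. Replicate 1 of knockout total RNA differs from replicate 2 in many rows, and the 2 knockout granule columns are pale to blue in most rows of the first 4 roles.

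Of the 6 arrest and cell-cycle members, all 6 had both control granule libraries above both control total libraries, as did 19 of the 35 members, with 11 of the 35 below. Over all genes 35.2% were above and 37.3% below in this way. Of the 6, 3 passed the test (Plk2, Gtse1 and Ckap2), all higher in granules, beside 5.89% of all genes. Between knockout and control granules 2 of 6 passed, Gtse1 and Ckap2, both lower in knockout cells (background 3.66%). Gtse1, a microtubule-associated protein of G2 phase that restrains p53 (ENSMUSG00000022385, chromosome 15, 85859745 to 85876573, plus strand), carries the match with 1 mismatch shown above. It stood at 125 and 87.9 CPM in control total, 254 and 237 in control granule, 146 and 182 in knockout total and 79.8 and 80.8 in knockout granule RNA. The knockout granule libraries were the lowest of the 8 and the control granule libraries the highest. Gtse1 was thus 2.31-fold higher in granule than in total RNA of control cells (log2 1.21, SE 0.27, adjusted p = 0.0330) and 2.04-fold lower in knockout cells (log2 -1.03, SE 0.27, adjusted p = 0.0363). Between the genotypes its granule level was 3.06-fold lower in knockout cells (log2 -1.61, SE 0.27, adjusted p = 0.0150). These 3 ratios share libraries and are not independent of each other.

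Ckap2, a spindle protein needed for mitosis (ENSMUSG00000037725, chromosome 8, 22168160 to 22185819, minus strand), stood at 46.2 and 40.8 CPM in control total, 170 and 161 in control granule, 104 and 58.6 in knockout total and 67 and 64.1 in knockout granule RNA. It was 3.80-fold higher in granule than in total RNA of control cells (log2 1.93, SE 0.32, adjusted p = 0.0154) and 2.53-fold lower in knockout than in control granules (log2 -1.34, SE 0.31, adjusted p = 0.0382). In knockout cells its granule and total libraries overlapped. Plk2, a polo-like kinase of the stress response (ENSMUSG00000021701, chromosome 13, 110395046 to 110400844, plus strand), was higher in granule than in total RNA in both genotypes. Its values were 170 and 181 CPM in control total against 425 and 366 in control granule (log2 1.17, SE 0.25, adjusted p = 0.0290), and 139 and 105 in knockout total against 247 and 239 in knockout granule RNA (log2 1.0, SE 0.25, adjusted p = 0.0323). The interaction for Plk2 was -0.18 (SE 0.35, adjusted p = 0.768).

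Cdkn1a, the cyclin-dependent kinase inhibitor p21 and the best known arrest target of p53, passed in none of the 5 contrasts with all libraries and no GC correction. It stood at 242 and 180 CPM in control total, 261 and 324 in knockout total, 287 and 299 in control granule and 184 and 201 in knockout granule RNA. The genotypes did not overlap in either fraction, with knockout above control in total RNA (log2 0.47, SE 0.26, adjusted p = 0.283) and below it in granules (log2 -0.60, SE 0.26, adjusted p = 0.175). With the GC trend removed Cdkn1a passed in all 5, at 0.89 in total RNA (adjusted p = 0.0416) and -0.72 in granules (adjusted p = 0.0263). Without replicate 1 of knockout total RNA it passed in 4 of 5, with -0.62 in granules (adjusted p = 0.0130) and 0.62 in total RNA, which did not pass (adjusted p = 0.101). Of its exon bases 7.68% are shared with another annotated gene. Btg2, an antiproliferative partner of the deadenylase complex, and Plk3, another polo-like kinase, showed overlapping genotypes in both fractions. Their log2 fold changes between knockout and control granules were -0.07 (SE 0.35) for Btg2 and -0.15 (SE 0.28) for Plk3.

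Of the 12 apoptosis members, 4 were lower in knockout than in control granules (Eda2r, Aen, Ei24 and Tnfrsf10b) and 0 were higher. Both knockout granule libraries were below both control ones for 9 of 12. Over all genes 3.66% were called lower and 5.79% higher, and 36.6% were below in this way. Eda2r, a death-domain-less receptor of the TNF receptor family for ectodysplasin A2 (ENSMUSG00000034457, chromosome X, 97333840 to 97377216, minus strand), stood at 50.7 and 45.7 CPM in control granule and 13 and 15 in knockout granule RNA. In total RNA it stood at 16.4 and 25.8 in control and 104 and 46.5 in knockout cells, so knockout was above control in total RNA and below it in granules. It was 3.44-fold lower in knockout than in control granules (log2 -1.78, SE 0.42, adjusted p = 0.0392) and 5.39-fold lower in granule than in total RNA of knockout cells (log2 -2.43, SE 0.43, adjusted p = 0.0108), the latter -1.74 (adjusted p = 1.73e-04) without replicate 1 of knockout total RNA. In total RNA the Eda2r log2 fold change of 1.84 (SE 0.42) did not pass (adjusted p = 0.113), and it was 1.14 (adjusted p = 0.0189) without replicate 1 of knockout total RNA.

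Aen, an exonuclease that takes part in apoptotic DNA breakdown (ENSMUSG00000030609, chromosome 7, 78895854 to 78911209, plus strand), stood between 85.2 and 107 CPM in 3 groups and lower in the other. It was at 88.8 and 85.2 CPM in control total, 98.2 and 88.1 in control granule, 86.5 and 107 in knockout total and 29.2 and 32.1 in knockout granule RNA. The knockout granule level was 3.04-fold lower than the control granule level (log2 -1.60, SE 0.25, adjusted p = 0.0118) and 3.15-fold lower than the knockout total level (log2 -1.66, SE 0.25, adjusted p = 0.00614). Tnfrsf10b, the mouse TRAIL death receptor (ENSMUSG00000022074, chromosome 14, 69767472 to 69784411, plus strand), was likewise lowest in knockout granules. Its values were 56.6 and 49.1 CPM in control total, 58.4 and 56.2 in control granule, 86.6 and 55.4 in knockout total and 22.2 and 23.3 in knockout granule RNA. It was lower in knockout than in control granules (log2 -1.33, SE 0.29, adjusted p = 0.0310) and lower in granule than in total RNA of knockout cells (log2 -1.64, SE 0.29, adjusted p = 0.0106). Ei24, a membrane protein of the endoplasmic reticulum (ENSMUSG00000062762, chromosome 9, 36779159 to 36797393, minus strand), stood at 162 and 138 CPM in control total, 212 and 217 in control granule, 141 and 140 in knockout total and 80.9 and 81.9 in knockout granule RNA. It was 2.63-fold lower in knockout than in control granules (log2 -1.40, SE 0.23, adjusted p = 0.0146), the only call for Ei24 among the 5 contrasts.

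**Figure D5:**
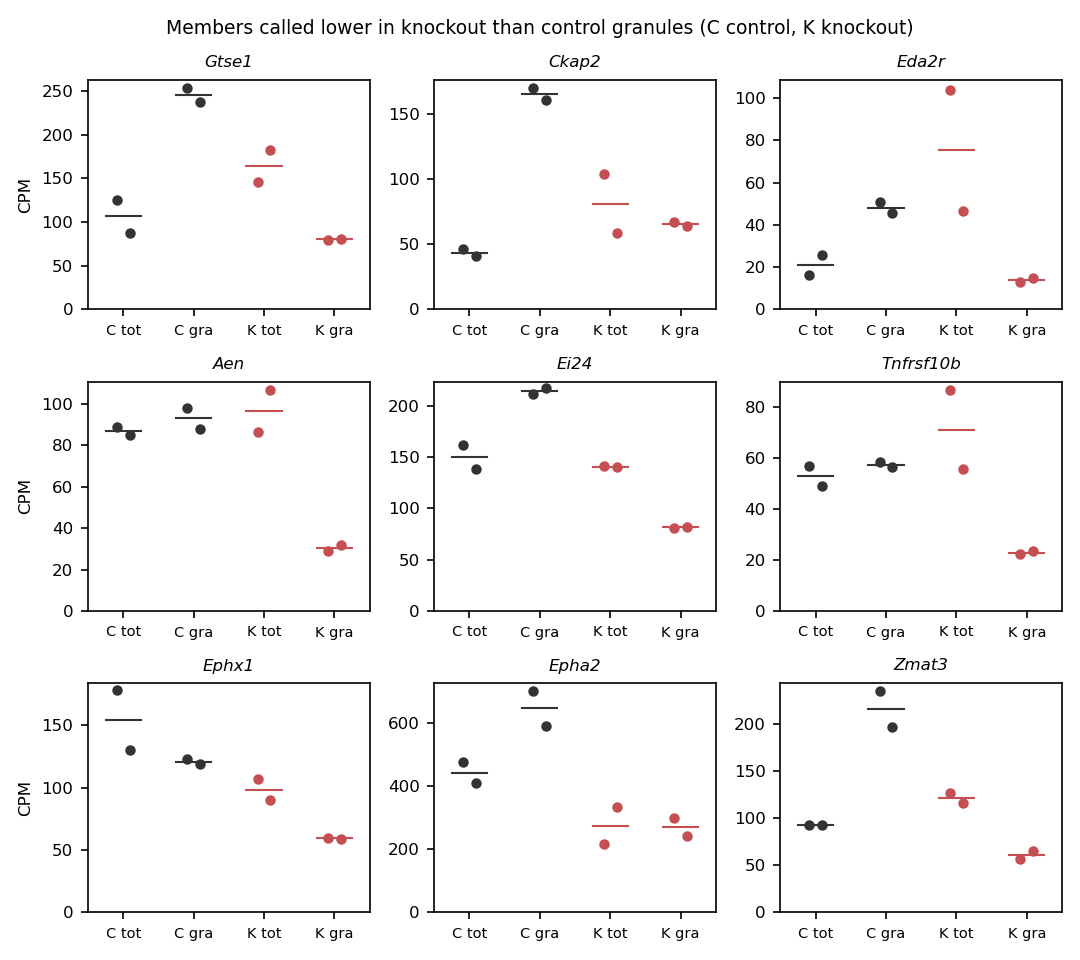
CPM in each library (points) and the group mean (bars) for the 9 members that were lower in knockout than in control granules, each panel with its own linear y axis from 0. In each panel both knockout granule points lie below both control granule points, as for Zmat3 at 56.3 and 64.5 against 234 and 196.

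The 3 other apoptosis members with a call differed between fractions. Trp53inp1, a stress protein that promotes p53-driven death (ENSMUSG00000028211, chromosome 4, 11156431 to 11174379, plus strand), stood at 13.4 and 14.8 CPM in control total, 37.0 and 30.2 in control granule, 52.0 and 32.3 in knockout total and 22.9 and 26.1 in knockout granule RNA. It was 2.38-fold higher in granule than in total RNA of control cells (log2 1.25, SE 0.31, adjusted p = 0.0430). This call was lost with the GC trend removed (log2 0.12, adjusted p = 0.759), and Trp53inp1 has the lowest GC content of the members, 38.8%. Both knockout total libraries of Trp53inp1 exceeded both control total libraries (log2 1.58, SE 0.31, adjusted p = 0.0776). The difference was 1.20 without replicate 1 of knockout total RNA, and 0.72 (adjusted p = 0.116) with the GC trend removed. Apaf1, the scaffold of the apoptosome (ENSMUSG00000019979, chromosome 10, 90989311 to 91082770, minus strand), stood at 28.2 and 36.3 CPM in control total, 80.8 and 74.4 in control granule, 49.2 and 53.6 in knockout total and 42.6 and 41.1 in knockout granule RNA. Its granule to total ratio in control cells was 2.41-fold (log2 1.27, SE 0.25, adjusted p = 0.0245). Perp, a desmosome-linked membrane protein of p53-driven death (ENSMUSG00000019851, chromosome 10, 18845020 to 18857073, plus strand), stood at 34.0 and 42.1 CPM in control total, 23 and 33.6 in control granule, 44.3 and 27.1 in knockout total and 11.8 and 17.8 in knockout granule RNA. Perp was lower in granule than in total RNA of knockout cells, just inside the threshold (log2 -1.27, SE 0.37, adjusted p = 0.0499, and -0.88, adjusted p = 0.0292, without replicate 1 of knockout total RNA).

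Bax, Bbc3 and Pmaip1, the Bcl-2 family proteins through which p53 opens the mitochondrial outer membrane, passed in none of the 5 contrasts as reported, and without replicate 1 of knockout total RNA Bax passed between fractions in both genotypes and Bbc3 between the genotypes in granules. Bax stood at 144 and 164 CPM in control granule and 133 and 151 in knockout granule RNA, so that the genotypes overlapped (log2 -0.11, SE 0.59, adjusted p = 0.920). In total RNA it stood at 290 and 233 CPM in control cells and at 46.1 and 218 in the 2 knockout libraries. Of the exon bases of Bax 12.2% are shared with Gm45808. Bbc3, which encodes Puma, stood at 30.8 and 31.0 CPM in control granule and 46.3 and 46.3 in knockout granule RNA (log2 0.58, SE 0.67, adjusted p = 0.612), and its knockout total replicates were at 9.74 and 61.4 CPM. Pmaip1, which encodes Noxa, stood at 19.4 and 18.2 CPM in control and 14.8 and 12.5 in knockout granules (log2 -0.46, SE 0.43, adjusted p = 0.518). Phlda3, an inhibitor of Akt signalling, stood at 155 and 174 CPM in control granule and 118 and 136 in knockout granule RNA, and at 28.4 and 230 in the 2 knockout total libraries. The standard errors of Bax, Bbc3 and Phlda3, 0.59, 0.67 and 0.75 in the granule contrast, were among the 7 widest of the members. The model estimates the spread of each gene over all 4 groups, knockout total replicates included. Fas, a death receptor, was low throughout, at 2.07 to 7.61 CPM, and its 2 knockout granule libraries were more than 2-fold apart (4.50 and 2.07).

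Of the 4 DNA repair members, 0 passed between the genotypes in either fraction. Both knockout granule libraries were below both control granule libraries for all 4, and for 36.6% of all genes. Ddb2, the damage sensor of nucleotide excision repair (ENSMUSG00000002109, chromosome 2, 91211572 to 91236982, minus strand), stood at 7.08 and 6.33 CPM in control total, 3.16 and 3.20 in control granule, 5.62 and 6.52 in knockout total and 2.28 and 2.42 in knockout granule RNA. It was lower in granule than in total RNA in both genotypes, by 2.11-fold in control (log2 -1.07, SE 0.27, adjusted p = 0.0448) and 2.58-fold in knockout cells (log2 -1.37, SE 0.27, adjusted p = 0.0156). As 23.8% of its exon bases are shared with Acp2 and whether counting used strand is not given in the sources used here, reads of the 2 genes may be mixed. Xpc, the partner sensor of that pathway, had values of 20.2 and 16.9 CPM in control total and 11 and 11.1 in control granule RNA (log2 -0.75, SE 0.34, adjusted p = 0.182). Polk, a translesion DNA polymerase, had the highest log2 fold change of all members between knockout and control total RNA, 2.53 (SE 0.68), with an adjusted p of 0.136. Without replicate 1 of knockout total RNA that of Polk was 0.87 (adjusted p = 0.0608), below those of Trp53inp1, Eda2r and Mdm2. Its values were 8.34 and 12.1 CPM in control total and 99.5 and 18.6 in knockout total RNA, more than 5-fold apart between the knockout replicates. Rrm2b, the p53-inducible ribonucleotide reductase subunit, likewise stood at 34.8 and 9.15 CPM in the 2 knockout total libraries, and at 19.9 and 17.7 in control granule against 7.94 and 7.45 in knockout granule RNA (log2 -1.29, SE 0.63, adjusted p = 0.226).

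Among the 8 metabolic, signalling and other members, 3 were lower in knockout than in control granules (Zmat3, Epha2 and Ephx1), beside 3.66% of all genes. Zmat3, an RNA-binding zinc finger protein (ENSMUSG00000027663, chromosome 3, 32334792 to 32366014, minus strand), had the smallest adjusted p of the members in this contrast and the longest mRNA of the 35, at 7797 nt. It stood at 92.3 and 92.4 CPM in control total, 234 and 196 in control granule, 126 and 116 in knockout total and 56.3 and 64.5 in knockout granule RNA. The 4 groups did not overlap, and control granule RNA was the highest and knockout granule RNA the lowest. Zmat3 was 3.56-fold lower in knockout than in control granules (log2 -1.83, SE 0.25, adjusted p = 0.00833). Relative to total RNA it was 2.33-fold higher in granules of control cells (log2 1.22, SE 0.24, adjusted p = 0.0238) and 2.0-fold lower in those of knockout cells (log2 -1.0, SE 0.24, adjusted p = 0.0280).

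Epha2, an ephrin receptor tyrosine kinase (ENSMUSG00000006445, chromosome 4, 141301240 to 141329384, plus strand), stood at 476 and 409 CPM in control total, 703 and 592 in control granule, 216 and 334 in knockout total and 298 and 243 in knockout granule RNA. Knockout libraries were below control libraries in both fractions, with a call in granules (log2 -1.26, SE 0.30, adjusted p = 0.0388) and none in total RNA (log2 -0.69, SE 0.29, adjusted p = 0.197). Ephx1, a microsomal epoxide hydrolase (ENSMUSG00000038776, chromosome 1, 180976210 to 181020904, minus strand), stood at 178 and 130 CPM in control total, 123 and 119 in control granule, 107 and 89.9 in knockout total and 60.0 and 58.9 in knockout granule RNA. It too was below control in both fractions, with a call in granules (log2 -1.02, SE 0.26, adjusted p = 0.0473) and none in total RNA (log2 -0.65, SE 0.26, adjusted p = 0.182). The interaction was -0.38 for Ephx1 (adjusted p = 0.526) and -0.57 for Epha2 (adjusted p = 0.397). For Epha2 it passed without replicate 1 of knockout total RNA (-0.87, adjusted p = 0.0430) and with the GC trend removed (-1.31, adjusted p = 0.0335).

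Sesn1, a stress protein that restrains mTORC1 (ENSMUSG00000038332, chromosome 10, 41809935 to 41908424, plus strand), was the other member beside Plk2 that was higher in granule than in total RNA of knockout cells. It stood at 12.6 and 12.3 CPM in control total, 23.5 and 23 in control granule, 7.80 and 8.79 in knockout total and 20.3 and 16.8 in knockout granule RNA. The granule to total ratio of Sesn1 was 2.24-fold in knockout cells (log2 1.16, SE 0.26, adjusted p = 0.0218) and 1.87-fold in control cells (log2 0.90, SE 0.26, adjusted p = 0.0604), and the fractions did not overlap in either genotype. Tigar, a fructose bisphosphatase that slows glycolysis (ENSMUSG00000038028, chromosome 6, 127085116 to 127109557, minus strand), stood at 40.4 and 34.7 CPM in control total, 37.4 and 36.1 in control granule, 44.6 and 36.0 in knockout total and 21.6 and 20.5 in knockout granule RNA. It was lower in granule than in total RNA of knockout cells (log2 -0.94, SE 0.25, adjusted p = 0.0402), with overlapping fractions in control cells. Gdf15, a secreted stress hormone, had the lowest granule to total ratio of the members in control cells, with 58.0 and 42.9 CPM in total and 7.58 and 6.64 in granule RNA (log2 -2.83, SE 0.79, adjusted p = 0.0590). Its knockout total replicates were at 6.63 and 50.6 CPM. Pltp, a phospholipid transfer protein, was the member with the highest log2 fold change between knockout and control granules, at 18.5 and 17 CPM in control and 54.9 and 40.7 in knockout cells (log2 1.43, SE 0.56, adjusted p = 0.144). Of its exon bases 19.3% are shared with Ctsa. Dcxr, an L-xylulose reductase, stood at 18.7 and 21.1 CPM in control and 14 and 18.2 in knockout granules (log2 -0.31, SE 0.36, adjusted p = 0.615).

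Per length, in control total RNA, the members ranged from 1.18 CPM per kb for Mdm4 to 238 for Bax, followed by Trp53 at 208, Phlda3 at 125 and Epha2 at 113. In knockout granule RNA Mdm4 was again the lowest, at 0.549 CPM per kb, and Bax the highest, at 129. In sequence the members were close to the 15380 protein-coding genes tested. Their median GC content was 49.3% (38.8% to 65.2%) against 50.5%, their median mRNA length 2743 nt against 3028 nt, and the letters GGACT, a common context of m6A, occurred 1.16 times per kb of mRNA against 1.06. These are counts of letters, and no map of m6A was used.

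Other genes of the pathway were read from 4 further lists. Of 16 upstream regulators and relatives of p53 (damage kinases, acetylases, ubiquitin enzymes, p53-binding proteins and the p53 family), 15 were tested and 0 passed between the genotypes in either fraction. In control cells 3 of the 15 were higher in granule than in total RNA, of which the damage kinase Atr differed most (log2 2.01, SE 0.45, adjusted p = 0.0341). Over all genes 5.89% were called higher there. In knockout cells 2 (13.3%) were higher, led by the acetylase Crebbp (log2 1.55, adjusted p = 0.0260), beside 9.17% of all genes. Trp53bp1, a p53-binding protein of double-strand break repair, was the 1 (6.67%) that was lower (log2 -1.03, adjusted p = 0.0293), beside 8.47% of all genes.

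Of 18 further p53 targets, the peptide transporter Tap1 was the 1 that was higher in knockout than in control granules (log2 1.87, SE 0.45, adjusted p = 0.0421). That is 5.56% of the list, beside 5.79% of all genes. The median log2 fold change of the 18 in that contrast was -0.07, beside -0.70 for the 35 members and 0.08 over all genes. Between fractions, 4 were higher in granules of control cells (background 5.89%), led by Thbs1 (log2 1.83, adjusted p = 0.0156). In the same cells 3 were lower (background 4.17%), led by Tap1 (log2 -2.83, adjusted p = 0.0154). In knockout cells 1 was higher (background 9.17%), the ubiquitin ligase subunit Fbxw7 (log2 1.66, adjusted p = 0.0118). There 4 were lower (background 8.47%), led by Gadd45a, an inhibitor of G2 progression (log2 -2.17, adjusted p = 0.00881). None of the 18 passed between genotypes in total RNA or for the interaction.

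Of 14 mitosis genes that p53 is known to repress through p21, 8 were lower in knockout than control granules and 0 were higher. Over all genes 3.66% were called lower and 5.79% higher. The median log2 fold change of the 14 was -1.19, beside 0.08 over all genes. For all 14 both knockout granule libraries were below both control granule libraries, as they were for 36.6% of all genes. The lowest was Ccna2, which encodes cyclin A2, at 143 and 147 CPM in control and 39.3 and 37.4 in knockout granules (log2 -1.92, SE 0.42, adjusted p = 0.0328). In control cells 3 of the 14 were higher in granule than in total RNA (background 5.89%), led by Mki67, the proliferation marker (log2 2.89, SE 0.53, adjusted p = 0.0201). In total RNA 0 of the 14 passed between the genotypes, with a median of -0.39.

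Of 16 early genes of the arsenite response, 11 were higher in granule than in total RNA of control cells and 14 in knockout cells. Over all genes 5.89% and 9.17% were called higher. Arc led in both (log2 4.54, adjusted p = 0.00302, and 4.60, adjusted p = 0.00213). Atf3 was the 1 gene that was lower, in control cells (log2 -1.24, adjusted p = 0.0231), beside 4.17% of all genes. Between knockout and control granules 1 of the 16 passed, Egr2, higher in knockout cells (log2 1.84, adjusted p = 0.0182). That is 6.25% of the list, beside 5.79% of all genes, and the median of the 16 was -0.19.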

How the data were processed

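The deposited table holds raw read counts, which the authors made from poly(A) RNA sequencing, with a row for each Ensembl gene and a column for each of the 8 libraries. The submitters' processing notes name STAR, DESeq2, GRCm38 and mm10, while the counting program, strand setting and annotation release are not given in the sources used here. Gene names, coordinates, mRNA lengths and GC content came from GENCODE M21 (GRCm38), which held 37693 of the 39017 identifiers, and promoter windows from RefSeq (GRCm38.p6). Library totals ran from 67257220 to 123508539, and limits from 3 counts cover counting error only.

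Counts were tested as deposited in R 4.3.3 with edgeR 4.0.16 (quasi-likelihood F test, robust, TMM scaling, its expression filter), in a single model of 4 group means over 8 libraries with 4 residual degrees of freedom. Adjustment followed Benjamini and Hochberg over all 18952 genes tested, and a gene is called at an adjusted p under 0.05. Standard errors were taken from the F statistic. With 2 libraries a group, p-values measure the spread between these libraries. CPM values use TMM-scaled library sizes. Per-length values divide group mean CPM by the length of the longest protein-coding transcript in kb.

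The alternatives were other scalings, DESeq2 1.42.0, other filters, the replicate number as a block, removal of the GC trend, each library left out, and a fit of only the groups compared. The members, the lists and the tests were chosen with earlier results of these data known. All 35 members are named, with values in every library for each member called in any contrast. Of the other lists, the called gene with the largest change in each direction and contrast is named. A result that this rule would name is not reported here.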

Additional observations from a re-analysis of the deposited data

Results flagged for a closer look

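Zmat3 had a granule to total ratio that differed between the genotypes by the interaction test of edgeR, with a log2 difference of -2.22 (SE 0.34, adjusted p = 0.0470). Both granule libraries lay above both total libraries in control cells and below them in knockout cells. The adjusted p was 0.131 with a replicate block and 0.0592 with library size as the only scaling. Without replicate 1 of knockout total RNA the Zmat3 difference was -2.17 (adjusted p = 2.71e-04). Over all alternatives run the adjusted p ranged from 2.19e-07 to 0.317.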

How the results depend on the processing

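With 2 libraries a group and 1 of them apart along GC content, the counts of members called depended on the processing, as did the share of all genes called. Counts are given in the order control granule against total, knockout granule against total, knockout against control in total RNA, the same in granules, and the interaction, where the reported counts are 8, 11, 0, 9 and 1. DESeq2 called 13, 17, 7, 12 and 14 (21.5, 26.9, 13.2, 17.8 and 14.5% of all genes), and edgeR without a filter 13, 18, 7, 13 and 14 (13.2, 17, 11.2, 11.2 and 11.5%), while genes of at least 5 CPM gave 5, 9, 0, 4 and 0 (11.9, 17, 0.653, 7.92 and 0.448%). With the GC trend removed the counts were 14, 23, 4, 17 and 12 (20.1, 32.5, 4.07, 24.0 and 9.49%). Median-of-ratios scaling gave 8, 12, 0, 9 and 2 (10.2, 17.7, 0.475, 9.43 and 0.528%), upper-quartile scaling 6, 10, 0, 7 and 2 (10.7, 17.8, 0.390, 9.57 and 0.823%), and library size alone 6, 8, 0, 7 and 0 (8.85, 16.3, 0.195, 8.21 and 0.438%). Upper-quartile scaling moved the median of all genes to -0.29 in the first contrast, 0.23 in knockout granules and 0.33 in the interaction, where TMM gave -0.06, 0.08 and 0.09. A fit of only the groups compared gave 22, 0, 0 and 26 (42.4, 0, 0 and 57.3%) in the first 4 contrasts, and has none for the interaction. Leaving out 1 library at a time gave ranges of 0 to 23, 0 to 29, 0 to 24, 0 to 23 and 0 to 24, where the lone library of a group is assumed to vary like the other groups. The cause of these changes was not tested.

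The replicate block gave 1, 4, 0, 4 and 0 (3.07, 10.0, 0, 3.54 and 0%), and with the GC trend removed as well 12, 21, 2, 14 and 10 (16.4, 28.2, 1.90, 19.8 and 4.06%). Correlations of replicate differences between groups ran from -0.602 to 0.190. In total RNA these differences ran with GC content in opposite senses (Spearman's rho across all genes 0.764 in control and -0.734 in knockout cells). The correlations therefore cannot show whether replicate numbers pair the libraries. A block with the numbers of the knockout total libraries exchanged, chosen after seeing the data, gave 9, 10, 0, 9 and 1 (11.5, 16.7, 0.496, 8.29 and 0.375%). The interaction call was then Eda2r and no longer Zmat3.

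The sign changed for at most 10 of 35 members, in the interaction with the GC trend removed and the block (9 without the block), and for 8 in total RNA without replicate 1 of knockout total RNA. Direction changed with a call in 4 results, each on leaving out a knockout total library. The knockout granule to total ratio (log2) of Bax, 0.11, was -0.62 without replicate 1 and 1.5 without replicate 2. That of Phlda3, -0.03, was -0.87 and 2.03, and that of Pltp, -0.11, was -0.80 and 1.08. Pltp between knockout and control total RNA, 0.18, was 0.86 and -1.03.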
